A study of Caenorhabditis elegans with 2 samples.

Results

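Cytosolic ribosomal protein genes of Caenorhabditis elegans encode the proteins that, with ribosomal RNA, build the large and the small subunit of the ribosome. The 78 genes described here are the protein-coding genes whose name is rpl- (47 genes, large subunit) or rps- (31 genes, small subunit) followed by a number, of 19973 protein-coding genes on the nuclear chromosomes. They were examined in ChIP-seq data, the sequencing of DNA recovered by chromatin immunoprecipitation, for HLH-12 in whole hermaphrodite young adults, in 2 biological replicates that form 1 group. All animals were of strain OP538, genotype unc-119(tm4063) III; wgIs538, in which a transgene adds HLH-12 with a C-terminal GFP-FLAG tag; they were collected 64 hours after synchronization as L1 larvae that had been starved after bleaching. The chromatin was sonicated and precipitated with an antibody against GFP. Both replicates come from a single transgenic line, and no other strain was analysed here. Without untagged animals, signal that does not depend on HLH-12 cannot be told apart from its binding. In whole animals binding in few cells and weak binding in many cells cannot be told apart.

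HLH-12 is a transcription factor of the basic helix-loop-helix family that the distal tip cells need for their migration as the gonad arms elongate. Proteins of this family bind DNA as dimers at E-boxes, hexamers that start with CA and end with TG. Ribosomal protein genes are short and are transcribed at high rates in growing animals, and in the nematode many lie next to a divergently transcribed neighbour or carry small nucleolar RNA (snoRNA) genes in their introns. Many nematode transcripts, ribosomal protein transcripts among them, receive a spliced leader at their 5′ end, so the annotated 5′ end of such a gene is the trans-splice site and transcription starts further upstream.

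Each replicate has its own relaxed peak list, a further relaxed list comes from both replicates combined (the pooled list below), and the strictest list was cut by the irreproducible discovery rate (IDR). Relaxed lists are long by design and include weak calls. The −log10 q given for each peak starts at 0.02 in all of them. It reaches 1.13 in the pooled list, 1.25 in replicate 1 and 1.09 in replicate 2, so q is not low for any peak. On the nuclear chromosomes they hold 6661 peaks in the pooled list, with a lowest signal of 26.3 and a median of 30.6. The replicate 1 list holds 19782, with a lowest signal of 12.1 and a median of 15.4, and the replicate 2 list 22556, with a lowest signal of 10.1 and a median of 13.0. The IDR list has 230 nuclear peaks with signals of 57.3 to 245. Signal is the value the peak caller wrote for each peak, with no unit given, so members are compared with each other and with other genes only within a list. Means ± SD over the replicates are taken on the values as deposited and include any difference in scale between the lists. A gene counts as having a promoter summit where the highest point of a peak lies between 1000 bp before and 200 bp after its 5′ end. It has a gene body summit where that point lies between its 5′ and 3′ ends, and a 3′ end summit where it lies from 200 bp before to 600 bp after the 3′ end. The last window was added after the positions of the summits had been seen.

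The 5 stretches of 101 bp below are centred on pooled promoter summits. They are the strongest member summits on chromosomes III and IV that lie upstream of the gene, and 3 of them share a run of 9 bases. All are from the reference genome WBcel235, the build that ce11 names, and read 5′ to 3′ on the strand of the ribosomal protein gene. Capitals mark E-boxes (CANNTG, where N is any base) and the run AGCGTGTTT. The stretches lie at chrIII:3867527-3867627 (+) for rpl-3, chrIV:654899-654999 (-) for rpl-15, chrIII:7854610-7854710 (+) for rpl-35, chrIII:4475672-4475772 (+) for rps-1 and chrIV:7084729-7084829 (-) for rps-4. Their summits are 277, 373, 474, 196 and 97 bp upstream of the annotated 5′ ends in that order. The rps-1 stretch overlaps an annotated non-coding RNA gene, F56F3.10, and the other 4 lie between annotated genes.
rpl-3: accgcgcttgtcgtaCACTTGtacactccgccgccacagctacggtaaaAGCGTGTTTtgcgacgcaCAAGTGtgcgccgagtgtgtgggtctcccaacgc
rpl-15: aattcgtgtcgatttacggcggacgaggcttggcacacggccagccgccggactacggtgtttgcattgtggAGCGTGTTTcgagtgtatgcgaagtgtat
rpl-35: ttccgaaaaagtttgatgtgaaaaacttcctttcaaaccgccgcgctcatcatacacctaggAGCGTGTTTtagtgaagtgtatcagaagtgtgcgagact
rps-1: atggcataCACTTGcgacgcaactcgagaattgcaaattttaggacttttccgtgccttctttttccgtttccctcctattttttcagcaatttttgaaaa
rps-4: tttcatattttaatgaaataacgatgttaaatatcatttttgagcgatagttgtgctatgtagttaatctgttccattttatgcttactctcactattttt

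Promoter summits were present at a minority of the ribosomal protein genes, in a larger share than among all genes in every relaxed list. The pooled list placed a promoter summit at 14 of 78 members (17.9%), against 9.03% of all protein-coding genes. The replicate 1 list had one at 29 members (37.2%), against 23.4% of all genes, and the replicate 2 list at 31 (39.7%), against 25.8%. In both replicate lists at once there were 13 members (16.7%), against 9.14% of all genes. The IDR list held 1 member promoter, that of rpl-3 (1.28%), against 0.365% of all genes. These shares come from genes and not from replicate animals, so they are descriptions without a test. In the pooled list 9 of 47 large subunit genes and 5 of 31 small subunit genes had a promoter summit, and 31 members (39.7%) had none in any of the relaxed lists, against 59.8% of all genes. By chromosome the 14 promoters lay on I (2 of 23 members), II (3 of 10), III (4 of 18) and IV (5 of 17). Of all genes on I to IV, 9.59%, 9.16%, 9.85% and 8.69% in that order had a promoter summit. The count on I was thus near the background. None of the 8 members on V and the 2 on X had one, where 8.25% and 9.30% of all genes did, so a count of 0 among so few members is near the background.

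Most of these member summits belonged to more than 1 promoter. Of the 14 pooled promoter summits, 10 (71.4%) also lay in the promoter window of another protein-coding gene, against 24.8% of the highest promoter summits of all 1803 genes with one. Without such shared summits, a choice made after the values had been seen, the count was 4 of 78 members (5.13%), against 6.82% of all genes, so the higher member share was not present among unshared summits. In the 3′ end window of another gene lay 2 of the 14 (14.3%), those of rpl-3 and rps-4, against 30.1% of the 1803. Ribosomal protein genes are crowded: 47 of them (60.3%) have a divergent 5′ end within 1000 bp upstream, against 17.7% of all genes, and 71 (91.0%) have another gene in those 1000 bp, against 52.0%. Promoter summits were found at 10 of the 47 members with a divergent neighbour and at 4 of the 31 without one. Over all genes, 9.83% of those with a divergent neighbour and 8.85% of those without had a promoter summit.

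Small RNA genes (tRNA, snoRNA, snRNA, rRNA and microRNA genes) lie within 200 bp of the summit of 171 of the 230 nuclear IDR peaks. Genes for snoRNAs are frequent inside the members. A snoRNA gene lies inside 13 members (16.7%), against 0.961% of all genes, and over all genes 17.2% of such hosts and 8.95% of the rest had a promoter summit. Of the 13 host members 4 had a promoter summit (rpl-15, rps-4, rpl-26 and rpl-7), and of the other 65 members 10 did. Only the rps-26 summit itself lay within 200 bp of a small RNA gene, the snoRNA gene F39B2.14. The part of host genes and neighbours in the member counts was not tested.

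**Figure D1:**
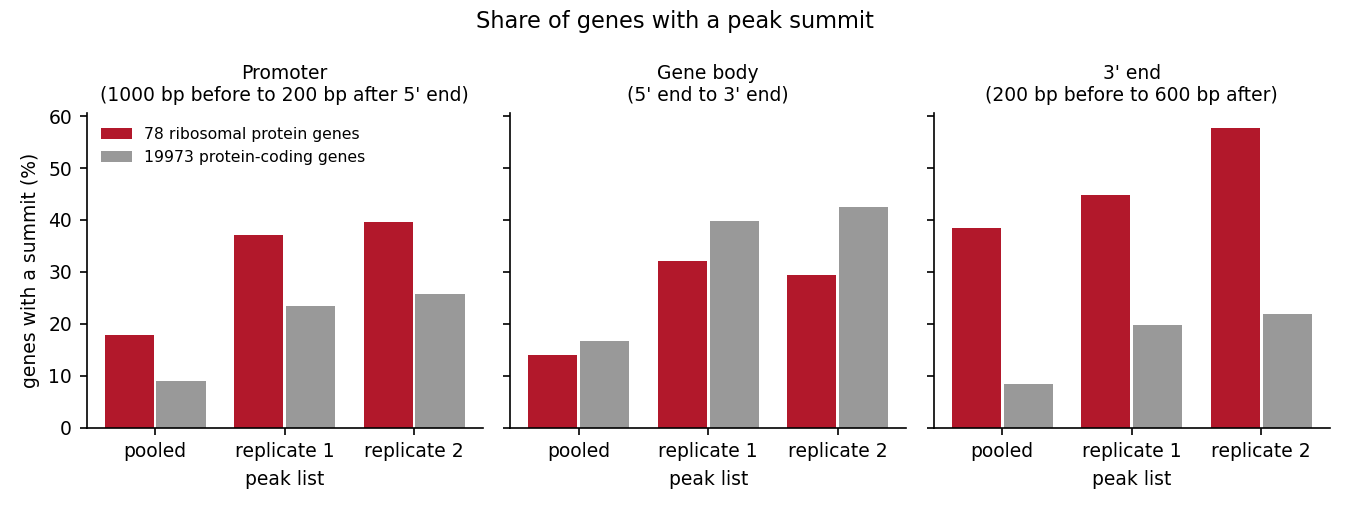
Share of genes (percent) with at least 1 peak summit in the promoter, the gene body and the 3′ end window, for the 78 ribosomal protein genes (red) and all 19973 protein-coding genes (grey), in the pooled list and each replicate list. The member share is higher at promoters (17.9% against 9.03% in the pooled list) and farthest above all genes at 3′ ends (38.5% against 8.45%). Over gene bodies, counted per gene, it is near that of all genes in the pooled list (14.1% against 16.8%) and lower in each replicate list.

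Of the large subunit genes, rpl-3 had the highest promoter signal in the pooled and replicate 1 lists, while rpl-15 had the highest in replicate 2; the product of rpl-3 is an essential protein of the large subunit whose extension reaches towards the peptidyl transferase centre, as known from yeast. The rpl-3 signal was 50.8 in replicate 1 and 18.5 in replicate 2 (34.6 ± 22.8, mean ± SD, n = 2), and 68.7 in the pooled list. That pooled summit ranked 148 in its list. Its −log10 q of 1.13 was the highest value the list contains, though still not a low q. The replicates disagreed on where the promoter was strongest. The replicate 1 summit coincided with the pooled one, 277 bp upstream of the gene and in the 3′ end window of the neighbouring gene acs-19. The highest replicate 2 summit lay 822 bp upstream, inside acs-19. The replicate 2 summit nearest to the pooled one, 252 bp upstream, had a signal of 15.6.

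The promoter of rpl-15, which encodes a protein of the core of the large subunit, had a signal of 25.1 in replicate 1 and 30.5 in replicate 2 (27.8 ± 3.81, SD, n = 2), and 56.4 in the pooled list. Its replicate summits were 12 bp apart, and it shares the summit with the promoter of K11H12.8. For rpl-35, whose product lies beside the exit of the nascent peptide tunnel, the values were 17.8 in replicate 1 and 27.0 in replicate 2 (22.4 ± 6.52, SD, n = 2), and 42.7 in the pooled list. The rpl-35 summit lay in no other gene's promoter, 3′ end window or body. These 3 promoters, rpl-3, rpl-15 and rpl-35, are the ones with AGCGTGTTT within 50 bp of the summit.

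Further large subunit promoters had weaker peaks. At rpl-12, which encodes a protein of the base of the ribosomal stalk, replicate 1 had 21.6 and replicate 2 had 14.2 (17.9 ± 5.26, SD, n = 2), with 35.5 in the pooled list. That summit is 36 bp inside the gene, in the promoter it shares with lin-54. At rpl-7 replicate 1 had 14.0 and replicate 2 had 20.7 (17.4 ± 4.75, SD, n = 2), with 30.2 in the pooled list, 688 bp upstream in the promoter of rab-11.1. At rpl-5, whose product carries 5S ribosomal RNA into the subunit, replicate 1 had 21.5 and replicate 2 had 15.8 (18.6 ± 4.06, SD, n = 2), with 29.8 in the pooled list, in the promoter of the collagen gene col-38. Its replicate summits were 370 bp apart, so the mean joins different peaks, and replicate 2 had no summit at the pooled position. The remaining 3 were the weakest of the 14 and had a summit in replicate 1 only. They were rpl-20 (17.3 in replicate 1 and 27.1 pooled), rpl-26 (19.1 and 26.9, inside the upstream gene cpf-1) and rpl-33 (15.2 and 26.4, shared with farl-11). Their pooled signals lie just above 26.3, the lowest in the pooled list, and their −log10 q of 0.02 is the lowest there.

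Among small subunit genes, rps-26 led; its product sits at the mRNA exit channel, as known from yeast and mammals. The rps-26 promoter had a signal of 30.4 in replicate 1 and 35.4 in replicate 2 (32.9 ± 3.56, SD, n = 2), and 56.7 in the pooled list. The summit was 450 bp upstream, at the snoRNA gene F39B2.14 and in the promoter of tmem-107. It was the highest member promoter of replicate 2 and the second highest, after rpl-3, of replicate 1.

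For rps-1, whose product also lies near the mRNA exit, the signal was 25.6 in replicate 1 and 13.1 in replicate 2 (19.4 ± 8.83, SD, n = 2), and 38.5 in the pooled list, in a promoter shared with ifet-1. The rps-4 promoter had 19.3 in replicate 1 and 12.7 in replicate 2 (16.0 ± 4.66, SD, n = 2), and 31.6 in the pooled list, in the 3′ end window of deb-1. In replicate 2 both lay near 13.0, the median of that list. The rps-28 promoter had 15.5 in replicate 1 and 16.5 in replicate 2 (16.0 ± 0.703, SD, n = 2), and 30.7 in the pooled list, shared with Y41D4B.4. At rps-3, which encodes a protein of the mRNA entry channel, replicate 1 had no promoter summit, replicate 2 had 10.3, near the 10.1 at which its list ends, and the pooled list had 31.0. That pooled summit lay 187 bp inside the gene. Just past the promoter window, replicate 1 had a summit of 13.4 at 320 bp and replicate 2 one of 11.4 at 228 bp.

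**Figure D2:**
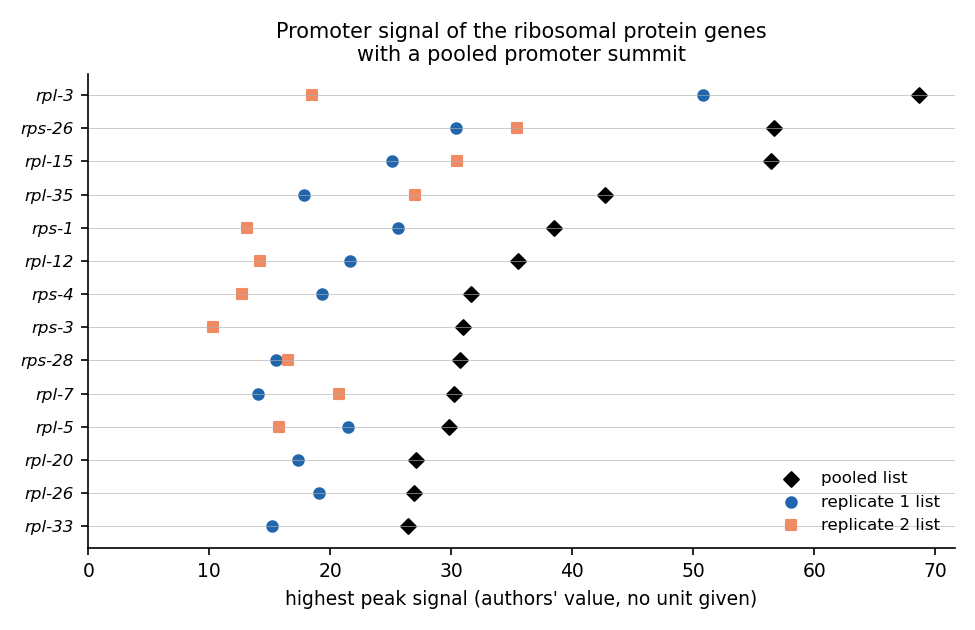
Highest promoter signal (the authors' peak value, horizontal axis) of each of the 14 ribosomal protein genes with a pooled promoter summit, in the pooled list (black diamonds), replicate 1 (blue circles) and replicate 2 (orange squares). A missing symbol means no summit in that list; rpl-3 (68.7), rps-26 (56.7) and rpl-15 (56.4) stand above the other 11, which lie between 26.4 and 42.7.

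The promoter signal of members was close to that of other genes in the pooled list and somewhat above it in each replicate list. Over members with a summit the median of the highest signal was 31.3 in the pooled list, against 31.1 over all genes with a summit. It was 18.4 against 15.7 in replicate 1 and 15.2 against 13.3 in replicate 2. Of the 14 pooled promoter members, 10 had a summit in both replicate lists, 3 in replicate 1 only and 1 in replicate 2 only. Another 3 members, rps-8, rpl-14 and rpl-19, had one in both replicate lists but not in the pooled list. Their highest replicate summits were 327, 544 and 651 bp apart in that order, so these are different peaks. At rpl-19 a lower replicate 1 summit (13.0, 942 bp upstream) lay near the replicate 2 summit (14.7, 864 bp upstream). Among the 13 members with both replicate values, the replicate summits lay within 200 bp of each other in 8 (61.5%), against 57.5% of the 1826 such genes in the whole genome. The log2 signals of these 13 correlated with a Pearson r of 0.35 and a Spearman rho of 0.29, against 0.44 and 0.26 over the 1826 genes. These correlations are across genes, which share 2 libraries, and a gene enters only where both lists call it. The replicate values also include promoters that only 1 replicate showed: rpl-13 (22.5) in replicate 1, and rpl-25.1 (24.8) and rps-21 (24.0) in replicate 2.

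Counted per gene, the gene body share of the members was near that of all genes in the pooled list and lower in each replicate list. Counted per length, it was higher. The pooled list placed a gene body summit in 11 members (14.1%), against 16.8% of all genes, a share that gives 13.1 members. Replicate 1 had one in 25 members (32.1%), against 39.8%, and replicate 2 in 23 (29.5%), against 42.4%. In both replicate lists there were 10 members (12.8%), against 24.7% of all genes, and in the IDR list 1 (1.28%), against 0.536%. Where any overlap of the whole peak with the gene counted instead of the summit, the order turned, with 26 members (33.3%) in the pooled list, against 20.5% of all genes. Ribosomal protein genes are short, with a median length of 754 bp against 2027 bp, and per kb of gene body they held 0.210 pooled summits, against 0.0660 over all genes. In each replicate list the members held 0.468 per kb, against 0.203 in replicate 1 and 0.228 in replicate 2 over all genes.

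The highest gene body signal was that of rpl-3 at 66.6 in the pooled list, 37.2 in replicate 1 and 28.1 in replicate 2 (32.7 ± 6.41, SD, n = 2). That summit lay 77 bp before the 3′ end, also in the 3′ end window of tir-1, and ranked 161. Thus rpl-3 had a peak of nearly equal pooled signal at each end of the gene, and both are in the IDR list. The next were rpl-12 with 35.5, rps-2 with 34.5, rpl-19 with 33.3 and rps-8 with 32.7 in the pooled list. For rpl-12 the value is the promoter summit already described, while in rps-2, rpl-19 and rps-8 the summit lay 138, 25 and 92 bp before the 3′ end in that order.

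**Figure D3:**
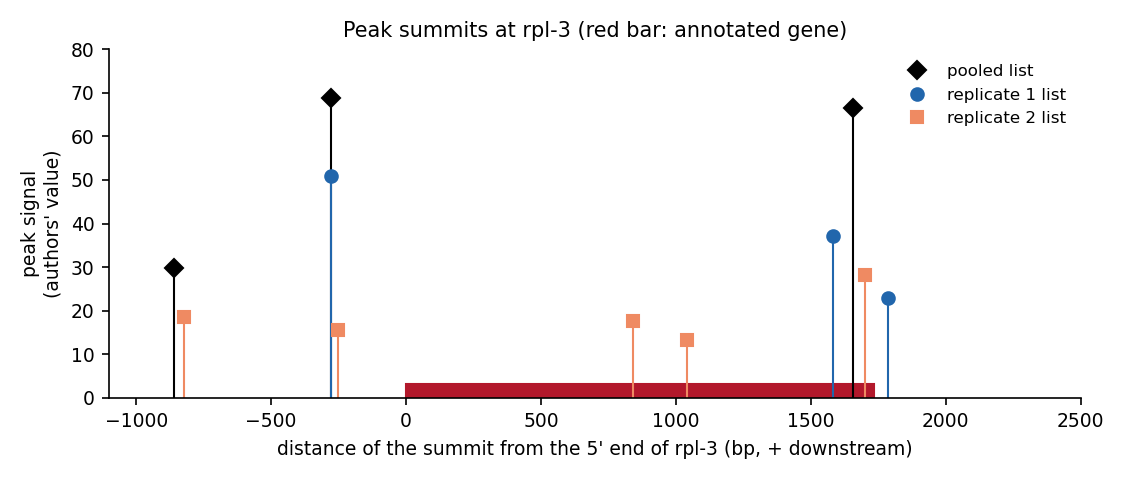
Every peak summit of the pooled list and of each replicate list around rpl-3, by distance from its 5′ end (bp, horizontal axis) and signal (vertical axis), with the annotated gene as a red bar. The pooled list has strong summits 277 bp before the 5′ end (68.7) and 77 bp before the 3′ end (66.6); the replicate summits near the 3′ end are 37.2 and 22.8 in replicate 1 and 28.1 in replicate 2.

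Along the genes, the summits of the members were concentrated at and just after the 3′ end. In the pooled list there were 16.7 summits per 100 members in the first 200 bp after the 3′ end, against 2.69 per 100 of all genes, and 12.8 against 2.68 in the next 200 bp. In the last 200 bp before the 3′ end there were 8.97 per 100 members, against 1.79. The first 200 bp after the 3′ end were also the highest bin of the members in each replicate list, with 23.1 against 5.95 in replicate 1 and 32.1 against 6.89 in replicate 2. A lower maximum preceded the 5′ end, with 6.41 per 100 members between 400 and 200 bp upstream, against 1.74 in the pooled list. Because the members are short, the profile from the 5′ end had a maximum inside or past the gene as well, with 14.1 per 100 members between 800 and 1000 bp, against 1.51.

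**Figure D4:**
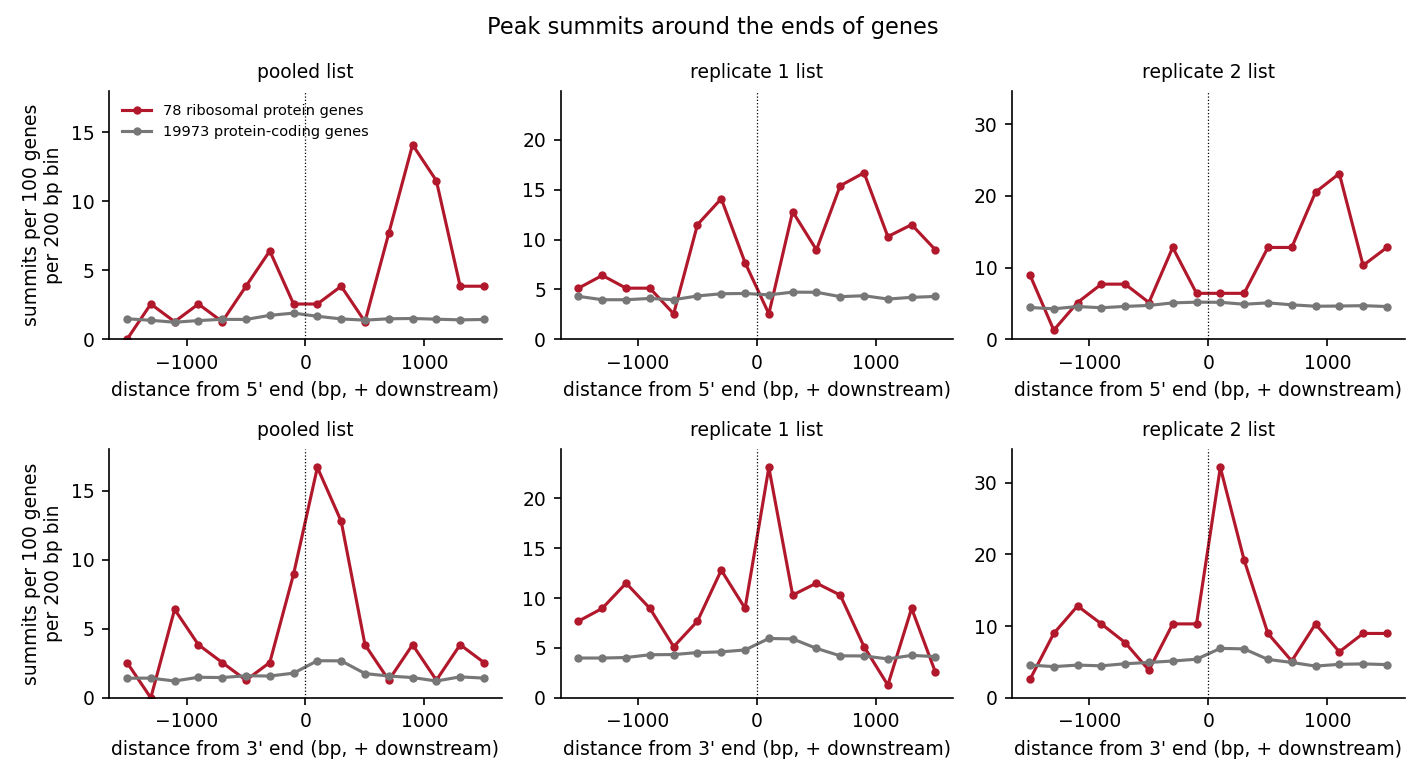
Peak summits per 100 genes in bins of 200 bp, by distance from the 5′ end (top row) and from the 3′ end (bottom row), for ribosomal protein genes (red) and all protein-coding genes (grey) in the pooled list and each replicate list; the vertical scale differs between lists. In all 3 lists the members are highest in the first 200 bp after the 3′ end (16.7, 23.1 and 32.1 summits per 100 genes), where all genes are at 2.69, 5.95 and 6.89.

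Counted per gene, 30 of 78 members (38.5%) had a 3′ end summit in the pooled list, against 8.45% of all genes. The replicate 1 list had one at 35 members (44.9%), against 19.7%, and the replicate 2 list at 45 (57.7%), against 22.0%. In both replicate lists there were 22 members (28.2%), against 7.60% of all genes, and the IDR list held that of rpl-3 alone (1.28%), against 0.355%. The count was 19 of 47 large subunit genes (40.4%) and 11 of 31 small subunit genes (35.5%). Per kb of window, the members held 0.528 pooled summits, against 0.111 over all genes. By chromosome the count was 11 of 23 members on I, 2 of 10 on II, 6 of 18 on III, 8 of 17 on IV, 3 of 8 on V and 0 of 2 on X. On I to V the member share was 20.0% to 47.8%, against 7.39% to 10.3% of all genes.

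Crowding was examined at the 3′ ends as well. Of the 30 pooled summits, 10 (33.3%) lay in the promoter window of another gene, against 32.6% of the highest 3′ end summits of all 1688 genes with one. In the 3′ end window of another gene lay 12 (40.0%), against 29.6%, inside another gene 13 (43.3%), against 36.7%, and in none of these 5 (16.7%), against 23.9%. Without the summits in another gene's promoter, the count was 20 of 78 members (25.6%), against 5.73% of all genes. None of the 30 lay within 200 bp of a small RNA gene, as did 7.71% of the 1518 pooled summits in any 3′ end window. Downstream of the 3′ end lay 24 of the 30, of which 21 were within 400 bp, and the median distance was 187 bp after the 3′ end.

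The 3′ end signals were also higher than those of other genes with a 3′ end summit. Their median was 36.7 for members, against 31.9 for all genes in the pooled list, 20.4 against 16.0 in replicate 1 and 17.2 against 13.5 in replicate 2. Of the 30 pooled members, 21 had a 3′ end summit in both replicate lists, 4 in replicate 1 only and 5 in replicate 2 only. With the members that only a replicate list called, 58 of 78 (74.4%) had a 3′ end summit in some list, against 34.1% of all genes in the list of either replicate. In 20 of the 22 members with both replicate values (90.9%) the summits lay within 200 bp of each other, against 65.7% of 1517 genes, and the median gap of the members was 64.0 bp. The log2 signals of the replicates over these 22 members had a Pearson r of 0.19 and a Spearman rho of 0.16, against 0.42 and 0.25 over the 1517 genes.

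After rpl-3, the highest 3′ end signals were those of other large subunit genes. At rpl-20 replicate 1 had 32.6 and replicate 2 had 24.3 (28.5 ± 5.91, SD, n = 2), with 53.9 in the pooled list. That summit lay 343 bp after the 3′ end, in the promoter window of tctn-1 and inside the next gene, cyc-2.1, which encodes a cytochrome c. At rpl-38 replicate 1 had 35.5 and replicate 2 had 18.2 (26.8 ± 12.2, SD, n = 2), with 50.6 in the pooled list, 446 bp after the 3′ end and inside the ion channel gene lgc-31. At rpl-14 replicate 1 had 27.7 and replicate 2 had 20.3 (24.0 ± 5.26, SD, n = 2), with 48.1 in the pooled list, inside C04F12.5 and in its 3′ end window. Within its own list, the rpl-38 summit ranked 231 in replicate 1 and 2712 in replicate 2, whereas that of rpl-20 ranked 303 and 546.

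The 3′ end signals of rpl-7A were 23.5 in replicate 1 and 22.8 in replicate 2 (23.1 ± 0.521, SD, n = 2), with 46.7 in the pooled list and replicate summits 2 bp apart, which ranked 1436 in replicate 1 and 779 in replicate 2. Those of rpl-16 were 19.7 in replicate 1 and 21.4 in replicate 2 (20.5 ± 1.21, SD, n = 2), with 46.1 in the pooled list. For rpl-10, whose product joins the subunit late in its maturation, as known from yeast, they were 17.3 in replicate 1 and 27.4 in replicate 2 (22.4 ± 7.09, SD, n = 2), with 45.9 in the pooled list. The highest rpl-10 summits of the replicates were 170 bp apart, so the mean joins different peaks. Replicate 2 also had a summit of 19.3 at 239 bp after the 3′ end, nearer to the pooled one at 203 bp. The rpl-16 summit ranked 3590 in replicate 1 and 1115 in replicate 2, so it stood higher in the order of the replicate 2 list. At rpl-31, which encodes a protein at the exit of the peptide tunnel, replicate 1 had 30.0 and replicate 2 had 18.2 (24.1 ± 8.35, SD, n = 2), with 45.3 in the pooled list. At rpl-11.1, whose product binds 5S ribosomal RNA together with that of rpl-5, replicate 1 had 26.8 and replicate 2 had 21.0 (23.9 ± 4.09, SD, n = 2), with 44.6 in the pooled list. The pooled summits of rpl-16 and rpl-10 also lay in the promoter windows of M01F1.8 and F10B5.2. Those of rpl-7A and rpl-11.1 lay in the 3′ end windows of tald-1 and pygl-1.

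Of the small subunit genes, rps-6 had the highest 3′ end signal; its product is the ribosomal protein phosphorylated by S6 kinase. It had 22.2 in replicate 1 and 19.7 in replicate 2 (21.0 ± 1.76, SD, n = 2), with 46.1 in the pooled list, 196 bp after the 3′ end and in no other gene, promoter or 3′ end window. The remaining 20 members ranged from 26.8 to 43.0 in the pooled list. A promoter summit and a separate 3′ end summit were both present in the pooled list at 6 members, rpl-3, rps-26, rpl-12, rps-4, rpl-20 and rpl-26. These are 7.69% of members, against 0.971% of all genes. There were 24 members (30.8%) with a 3′ end summit and no promoter summit, against 7.48% of all genes, and 8 (10.3%) with a promoter summit and no 3′ end summit, against 8.06%. In all, 40 of 78 (51.3%) had a pooled summit in the promoter, the body or the 3′ end window, against 27.5% of all genes. No summit in any of these places and in any relaxed list was found at 6 members (7.69%), rpl-22, rpl-30, rpl-36, rpl-37, rpl-42 and rps-0, against 22.3% of all genes.

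**Figure D5:**
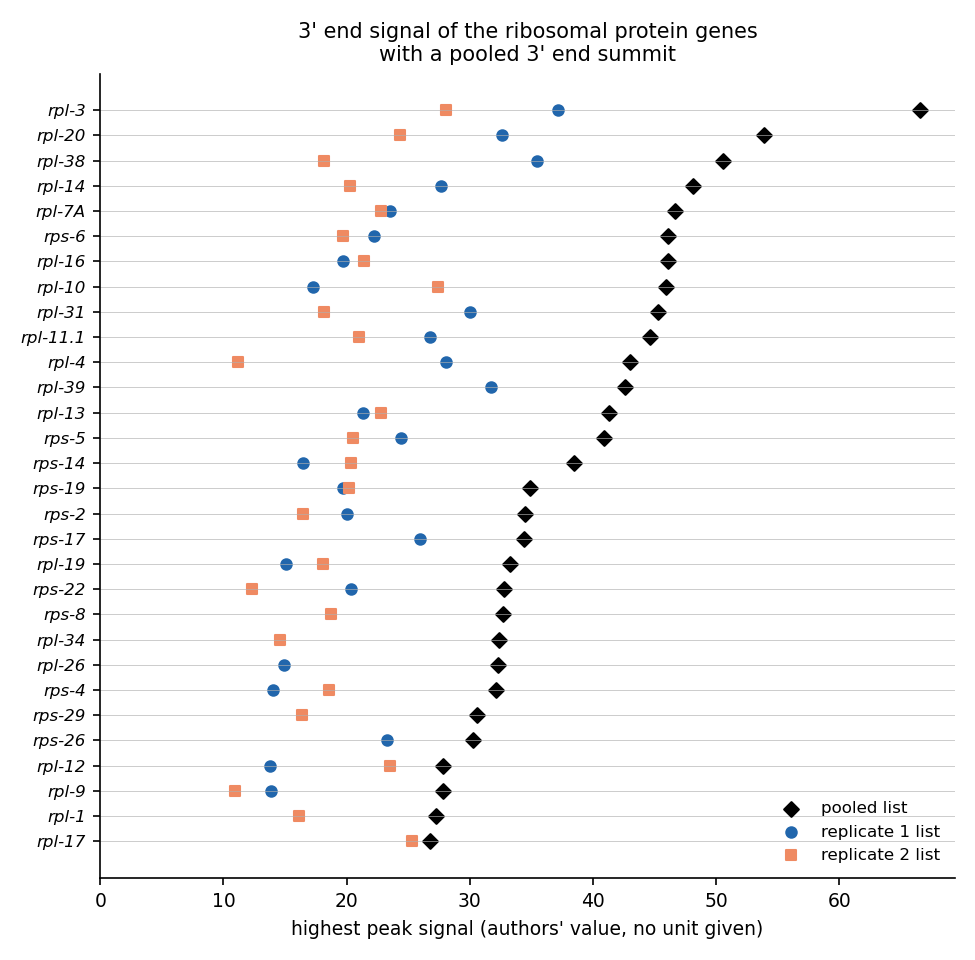
Highest 3′ end signal (the authors' peak value, horizontal axis) of each of the 30 ribosomal protein genes with a pooled 3′ end summit, in the pooled list (black diamonds), replicate 1 (blue circles) and replicate 2 (orange squares). The pooled values run from 26.8 to 66.6, and 21 of the 30 genes have a symbol for both replicates.

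E-boxes counted in any form were present at a smaller share of member promoters than of all promoters. In the 300 bp window that starts 250 bp before and ends 50 bp after the 5′ end, CANNTG was present at 40 members (51.3%), against 69.4% of all genes, searched on both strands. It was present at 7 of the 14 members with a pooled promoter summit and at 33 of the other 64. Of its specific forms, which CANNTG includes, CACATG was present at 10.3% of members, against 9.97% of all genes, CAGCTG at 5.13%, against 5.55%, and CACCTG at 2.56%, against 8.48%. CACATG was present at 4 of the 14 members with a pooled promoter summit (28.6%) and at 4 of the other 64 (6.25%). The median GC content of these windows was 33.0% for members, against 34.3% for all genes. TTTCAG, the consensus of the nematode splice acceptor, was present on the gene strand in the 50 bp before the 5′ end at 40 members (51.3%), against 17.7% of all genes.

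The share of summits with an E-box next to them was also smaller for members, though it rests on only 14 and 30 summits. Within 50 bp of a pooled promoter summit, CANNTG was present at 2 of 14 members (14.3%), rpl-3 and rps-1, against 32.4% of the 1667 pooled summits in any promoter, and CACATG at 0 of 14, against 3.42%. At the 3′ end summits CANNTG was present at 7 of 30 members (23.3%), against 32.4% of 1518, and CACATG at none. A match is a run of letters and not a shown binding site. The run AGCGTGTTT, noticed when the sequences above were set side by side, was within 50 bp of 3 of the 14 member promoter summits (21.4%), each time on the strand of the gene, and of 0.300% of the 1667. In the 500 bp upstream of the 5′ end it was present at 4 members (5.13%), the fourth being rpl-18, and at 0.546% of all genes. Of the 109 genes with it, 14 (12.8%) had a pooled promoter summit, against 9.03% of all genes. These 14 include rpl-3, rpl-15 and rpl-35, the promoters in which the run was noticed. It was chosen because it recurred, so these shares are a description of these promoters.

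Other genes of the translation machinery were counted in the same windows. Over all genes, 9.03% had a pooled promoter summit and 8.45% a pooled 3′ end summit. For promoters the share of all genes was 23.4% in replicate 1 and 25.8% in replicate 2. For 3′ ends it was 19.7% and 22.0%. Of 5 ribosomal proteins named otherwise (rla-0, rla-1 and rla-2 of the stalk, and the ubiquitin fusions ubl-1 and ubq-2) none had a pooled promoter summit, and 3 (60.0%) had a 3′ end summit, with pooled signals of 45.7 at rla-1 and 34.1 at both rla-0 and rla-2. Of 46 translation initiation and elongation factors, 8 (17.4%) had a pooled promoter summit and 11 (23.9%) a 3′ end summit. Their 3′ end share was 45.7% in replicate 1 and 41.3% in replicate 2. Their highest pooled values were 64.6 at the promoter of eif-2Bgamma, a subunit of the guanine nucleotide exchange factor of eIF2, and 48.6 at the 3′ end of eef-1A.1, an elongation factor gene. Of 70 mitochondrial ribosomal protein genes, 10 (14.3%) had a pooled promoter summit, the highest being mrpl-23 (52.0), mrpl-32 (41.3) and mrpl-37 (38.1), and 6 (8.57%) a 3′ end summit, near the share of all genes. Their 3′ end share was 22.9% in each replicate list, also near that of all genes. Of 26 genes listed under ribosome biogenesis and RNA polymerase I, 4 (15.4%) had a pooled promoter summit, with the highest signal at larp-1 (46.7), and 3 (11.5%) a 3′ end summit. The replicates differed for this list, with promoter summits at 4 genes in replicate 1 and 11 in replicate 2, and 3′ end summits at 13 in replicate 1 and 5 in replicate 2.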

How the data were processed

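Peaks were called for each replicate and on both together, and the relaxed lists with a control, per the file listings; which aligner and peak caller were used, and how reads with several matches were treated, was not stated in the sources read here. The signal of each peak is the deposited value, and so is the −log10 q the authors give for it; read depth and any scaling for depth are unknown, and no interval that needs them is given. Only the ce11 lists were used. Their peaks lie within the chromosome lengths of WBcel235, whose Ensembl 115 annotation and RefSeq sequence gave genes and bases. The replicate lists differ in number and signals and are not copies.

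For each gene the highest signal of any summit in a window was taken with Python 3.11.15, numpy 2.4.6, pandas 2.3.3 and scipy 1.17.1, and figures were drawn with matplotlib 3.10.9. The assignment was tested on simulated data. Means ± SD cover 2 replicates. With 1 group and members chosen by name, no test was run. The members and lists were chosen with earlier results of these data known. Of 30 biogenesis names 26 were found. Named are members with an IDR summit, the 25 highest pooled promoters (14 exist), the 5 highest gene bodies, the 5 highest promoters of each replicate list and up to 3 genes of each other list; the 10 highest 3′ ends, the run of 9 bases, and the remaining names were chosen after their values were seen. Alternatives were other windows, peak overlap, peaks above the median rank, removal of summits at small RNA genes or in other promoters, replicate lists of equal length, and each replicate alone.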

Additional observations from a re-analysis of the deposited data

How the results depend on the processing

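The 14 members with a pooled promoter summit became 22 (28.2%, against 16.5% of all genes) with a promoter of 2000 bp upstream to 500 bp downstream, 9 (11.5%, against 4.76%) among the 3338 strongest pooled peaks, and 4 without summits in another gene's promoter. The 11 with a gene body summit became 26 by peak overlap and 7 (8.97%, against 9.09%) among those 3338. The 13 with a promoter summit in both replicates became 30 (38.5%, against 22.9%) with the wider promoter and 5 (6.41%, against 2.20%) with lists cut to the pooled length. Each replicate alone, cut to the pooled length or, for the IDR list, to its length, gave 16 to 19 promoters, 9 to 10 gene bodies and 23 to 30 3′ ends; the IDR member was rpl-3 from replicate 1 alone and became 2 members, rpl-15 and rps-26, from replicate 2 alone. The 3′ end count stayed between 20 and 34 under every alternative run, all chosen after seeing the data, and its count in both replicates became 15 with lists of the pooled length. Of 39 promoter signals of single members under other promoter windows or without small RNA genes, 39 were exactly unchanged, since the same summit stayed the highest, and 3 more had no value. Why counts moved was not tested. No paired analysis was possible because the study has 1 group. Depth is unknown, so a member without a summit cannot be called unbound. Without untagged animals, a member with a summit cannot be called bound by HLH-12 from these lists alone.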
